A study of Mus musculus with 2 samples.

Results

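Progenitor and precursor B cells are the bone marrow stages that carry the surrogate light chain, and here they were the kept cells with at least 1 Cd79a unique molecular identifier (UMI), at most 1 UMI over Cd3d, Cd3e and Cd3g, and at least 2 UMIs over Vpreb1 and Igll1. They numbered 274 of 20322 kept cells, and they are called SLC+ B cells below. Of these, 261 came from the library labelled Irf4-/- and 13 from the library labelled WT. The remaining 1670 cells with Cd79a and few CD3 transcripts, which had 0 or 1 UMIs of Vpreb1 and Igll1, are called other B cells.

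The study sorted bone marrow of Irf4-/- mice and of C57BL/6 (B6) wild-type mice for natural killer progenitors (NKP) and sequenced the RNA of single cells, with 1 library per genotype. The gate took cells with CD122 and without NK1.1, Ncr1, Sca-1, c-kit and lineage markers, so the B cells described here are cells that passed a gate for another lineage, and the gate can set their shares. The age and number of mice, the markers in the lineage mix and the deleted exons of Irf4 are not given in the sources used here. With 1 library per genotype no test between genotypes was made, and genotype, mouse, sort and library cannot be told apart.

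A developing B cell first rearranges its heavy chain and pairs the new mu chain with a surrogate light chain made of VpreB and lambda 5, the products of Vpreb1 and Igll1, together with the signalling chains CD79A and CD79B. This pre-B receptor drives a burst of division in large pre-B cells, after which the cells turn small, express Rag1 and Rag2 again and rearrange a conventional kappa or lambda light chain. In mice, IRF4 acts with IRF8 in that step: mice that lack both accumulate cycling pre-B cells that keep the surrogate light chain and rearrange light chain genes poorly.

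The promoters of the genes that define the cells are shown first, since the rule rests on them. Vpreb1 (ENSMUSG00000059305) lies on the minus strand of chromosome 16, mm10 positions 16868403 to 16870843, and Igll1 (ENSMUSG00000075370) lies beside it on the same strand at 16860671 to 16863985. Vpreb2 (ENSMUSG00000059280) is a close copy of Vpreb1 on the plus strand at 17980428 to 17981273, and 739 of 759 aligned transcript bases (97.4%) were identical, so counts of the pair are uncertain. Each window below, from RefSeq on GRCm38.p6, runs from 250 bases before to 50 bases after a RefSeq gene start, at chr16:16869206-16869505, chr16:16863936-16864235 and chr16:17980315-17980614. Capitals mark the letters CAGGTG, or CACCTG where the match is on the other strand, which is the E box letters that E proteins such as E2A bind.

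Vpreb1 promoter: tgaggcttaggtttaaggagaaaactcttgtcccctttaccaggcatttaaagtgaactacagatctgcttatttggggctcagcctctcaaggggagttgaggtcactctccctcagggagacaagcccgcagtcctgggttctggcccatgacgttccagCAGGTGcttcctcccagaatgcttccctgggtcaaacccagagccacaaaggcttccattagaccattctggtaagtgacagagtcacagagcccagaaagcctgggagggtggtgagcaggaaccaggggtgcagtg
Igll1 promoter: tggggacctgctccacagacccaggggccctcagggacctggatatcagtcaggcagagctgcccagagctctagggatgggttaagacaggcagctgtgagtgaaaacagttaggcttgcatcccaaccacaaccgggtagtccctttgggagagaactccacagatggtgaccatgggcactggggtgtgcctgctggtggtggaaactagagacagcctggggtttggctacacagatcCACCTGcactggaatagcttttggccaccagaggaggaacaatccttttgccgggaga
Vpreb2 promoter: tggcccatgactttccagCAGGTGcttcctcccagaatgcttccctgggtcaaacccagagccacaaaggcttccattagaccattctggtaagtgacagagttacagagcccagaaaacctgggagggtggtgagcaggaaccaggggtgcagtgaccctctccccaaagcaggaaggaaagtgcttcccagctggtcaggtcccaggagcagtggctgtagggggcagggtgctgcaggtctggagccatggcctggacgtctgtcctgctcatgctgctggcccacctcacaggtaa

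The letters start at base 163 of the Vpreb1 window, at base 243 of the Igll1 window and at base 19 of the Vpreb2 window. They were in 8 of the 25 windows searched, the others being those of Cd79a, Rag1 and Ramp1, 1 of Gsn and 1 of Lef1, and in 20.2% of 32851 mouse promoter windows of 300 bases on either strand. Of 23 genes looked up, 18 matched the promoter table with 25 windows. TCCC and GGGA with 2 bases between them, letters bound by EBF1, were in 0 of the 25 windows and in 0.904% of all windows. GGAA and GAAA with 2 bases between them, the composite letters that PU.1 and IRF4 bind together, were in 0 of 25 and in 2.72% of all, and the interferon response letters, GAAA and GAAA with 2 bases between them, were in 1 of 25, that of Ebf1, and in 3.44% of all. These are matches of letters only.

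The libraries held 8147 and 12732 barcodes labelled Irf4-/- and WT, of which 7955 and 12367 were kept, with medians of 9540 and 7125 UMIs. SLC+ B cells had a median of 4453 UMIs (1433 to 68140) labelled Irf4-/- and of 14657 UMIs (2828 to 53252) labelled WT, against 4069 and 2962 UMIs in other B cells. The libraries shared 27 barcodes, 25 of them kept in both, and none belonged to an SLC+ B cell. No doublet caller was run. Markers of other lineages were summed in SLC+ B cells. The 16 T cell genes summed to 119.5 counts per 1000000 UMIs (CPM) labelled Irf4-/- and 102.5 CPM labelled WT, with 2 and 10 genes at 0, and the 17 NK genes to 76.6 and 17.1 CPM, with 7 and 16 at 0. Ncr1 and Klrb1c, the genes of 2 gate proteins, had 0 UMIs in both, and Il2rb, the gene of the positive gate protein CD122, had 3 and 0 UMIs. The 14 myeloid genes summed to 1785 and 256 CPM, and 1 dividing cell of 61752 UMIs labelled Irf4-/- held 1120 of the 1122 Elane UMIs and all 719 Mpo UMIs. Ratios between libraries over all SLC+ B cells were recomputed without that cell. None of the 52 values for results whose interval excluded 0 changed direction. The comparisons of dividing cells, the shares and the ratios over other B cells were not recomputed without it. The 10 genes of plasmacytoid dendritic cells summed to 896 and 342 CPM, with 3 and 5 at 0, among them Siglech, the defining gene, in both. The 7 plasma cell genes summed to 572 and 611 CPM, with 0 and 4 at 0. The part of these transcripts in the ratios between libraries was not tested.

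The label was checked with 6 markers, of which Vpreb1 and Igll1 were used by the rule. Ebf1, the transcription factor that sets the B lineage programme, was detected in 258 of 261 SLC+ B cells labelled Irf4-/- and in 13 of 13 labelled WT. Its level per 10000 UMIs of a cell had a lowest value, median and highest value of 0, 33.2 and 93.6 labelled Irf4-/-, and of 7.39, 13.9 and 59.0 labelled WT. Ebf1 is shared with other B cells, where 95.6% and 94.6% of cells had it, while 0.301% and 0.171% of T cells did.

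Myl4, which encodes a myosin light chain, was the sharper marker, and it was detected in 204 of 261 and in 10 of 13 SLC+ B cells, against 28.6% and 23.7% of other B cells and 1.47% and 0.827% of T cells. Tifa, an adaptor of TRAF signalling, was in 197 of 261 and in 13 of 13 cells, against 25.5% and 22.1% of other B cells and 0.0752% and 0.0450% of T cells. Cd24a, which encodes the heat-stable antigen of immature B cells, was in 252 of 261 and 11 of 13 cells. Vpreb3, which encodes a protein that binds the mu chain, was detected in every SLC+ B cell, with medians of 54.2 and 22.8 per 10000. All 4 markers that the rule did not use were thus in most of the cells of both libraries, but Ebf1 was in most other B cells too. No share of other B cells is given here for Cd24a. The shares above are without thinning, at medians labelled WT of 14657 UMIs in SLC+ B cells and 2962 UMIs in other B cells.

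**Figure D1:**
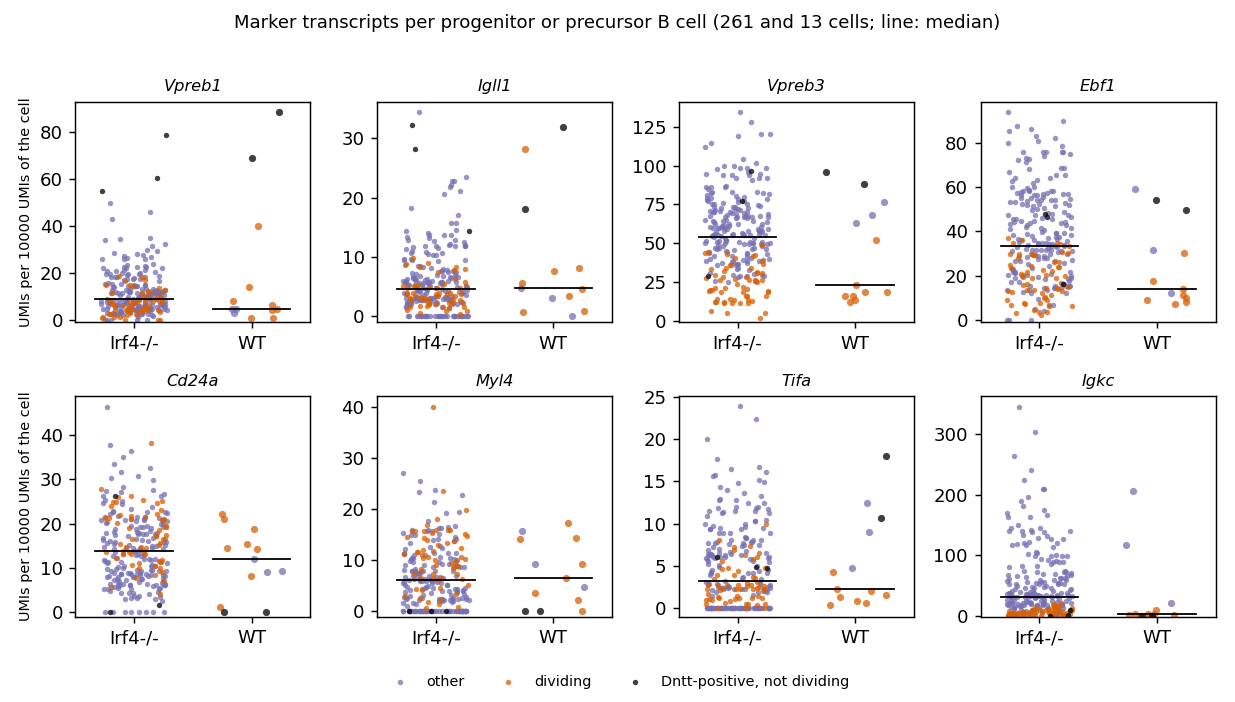
Level of each gene per 10000 UMIs in each SLC+ B cell, library labelled Irf4-/- (261 cells) left of library labelled WT (13 cells), 1 point per cell, coloured by stage (dividing, Dntt-positive and not dividing, other), with the median as a line. Ebf1 has a median of 33.2 labelled Irf4-/- and 13.9 labelled WT, and Igkc one of 30.8 and 3.31.

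The cells just inside the threshold were graded rather than set apart. Labelled Irf4-/-, the 29 cells with 2 UMIs of Vpreb1 and Igll1 had 552 CPM of Myl4, 543 CPM of Tifa and 1481 CPM of Ms4a1, which encodes the mature B cell protein CD20. The 70 cells with 1 UMI, which count as other B cells, had 296 CPM of Myl4, 190 CPM of Tifa and 2151 CPM of Ms4a1. Cd24a did not set them apart, with 1026 CPM at 2 UMIs and 1160 CPM at 1 UMI, and Vpreb3 had 5444 and 4114 CPM. Labelled WT, 3 cells had 2 UMIs and 5 cells had 1. Most SLC+ B cells were far from the threshold, with 179 of 261 and 8 of 13 at 5 UMIs or more. In T cells, which lack the surrogate light chain, 0.812% of 6648 cells labelled Irf4-/- and 0.594% of 11119 labelled WT had at least 1 UMI of either gene, and 1 and 3 cells had at least 2, at median depths of 9908 and 7244 UMIs.

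Among kept cells labelled Irf4-/-, 3.28% were SLC+ B cells (95% exact binomial interval 2.90 to 3.70%), against 0.105% (0.0560 to 0.180%) of those labelled WT, a ratio of 31.2 (17.9 to 59.4). These intervals, and all others here, cover counting error alone. Other B cells differed far less, with 777 cells labelled Irf4-/- against 893 labelled WT, a ratio of shares of 1.35 (1.23 to 1.49). Among all cells with Cd79a and few CD3 transcripts, SLC+ B cells were therefore 25.1% (22.5 to 27.9%) of 1038 labelled Irf4-/-, against 1.43% (0.766 to 2.44%) of 906 labelled WT. The rule set the threshold on these counts, so the shares are a description.

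The same shares were taken among B cells picked by further genes, which describe where the SLC+ cells lay and are not separate support, since the rule's own values and the same 2 libraries were used. Of B cells with Rag1, which encodes a subunit of the recombinase, 104 of 176 (59.1%) were SLC+ labelled Irf4-/-, against 3 of 78 (3.85%) labelled WT, a ratio of 15.4 (5.11 to 75.7). Of B cells with Ms4a1, 65 of 766 (8.49%) were SLC+ labelled Irf4-/-, against 2 of 789 (0.253%) labelled WT. Of B cells with at least 2 UMIs of Il7r, the receptor chain for interleukin 7, 150 of 207 (72.5%) were SLC+ labelled Irf4-/-, against 10 of 51 (19.6%) labelled WT.

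Dividing B cells were those with at least 2 UMIs over Mki67, Top2a, Cdk1 and Birc5. Of these, 60 of 107 (56.1%) were SLC+ labelled Irf4-/-, against 8 of 55 (14.5%) labelled WT, a ratio of 3.86 (1.84 to 9.34). After every cell was thinned to 2000 UMIs, the share with any Vpreb1 or Igll1 UMI was 63.6% labelled Irf4-/- against 5.48% labelled WT among Rag1+ B cells, and 41.1% against 12.7% among dividing B cells. The order of the libraries was the same in each of the 6 kinds of B cell looked at, with and without thinning, and whether the ratio differs between kinds of B cell was not tested.

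**Figure D2:**
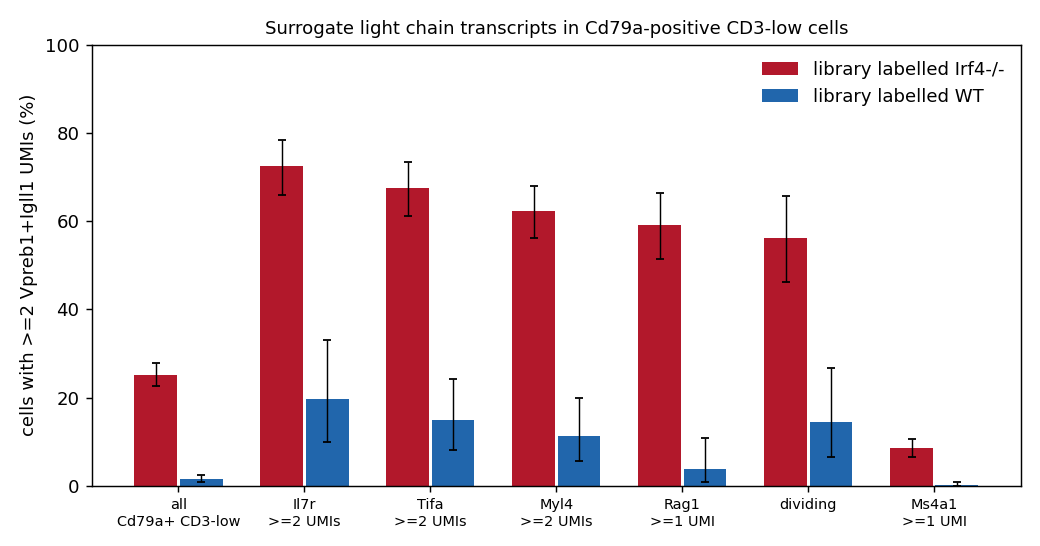
Share of B cells with at least 2 UMIs over Vpreb1 and Igll1, in percent, for all B cells and for B cells picked by other genes, library labelled Irf4-/- left of library labelled WT; bars start at 0 and error bars are 95% exact binomial intervals for counting error. Among Rag1+ B cells the shares are 59.1% labelled Irf4-/- and 3.85% labelled WT.

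SLC+ B cells were next set against other B cells of the same library, as a description, since the rule used this contrast. Summed counts were compared as log2 ratios of CPM, and a gene was called at 2-fold or more with a mean of at least 50 CPM. Called higher in both libraries were 190 of 2594 genes (7.32%), and called lower in both were 140 (5.4%). In single libraries, 8.3% were called higher and 6.35% lower labelled Irf4-/-, against 17.3% and 13.9% labelled WT.

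Several of the genes that stood highest in SLC+ B cells of both libraries have no known role in the receptor itself. Gsn, which encodes the actin-severing protein gelsolin, was higher than in other B cells by a log2 ratio of 4.37 labelled Irf4-/- and 3.79 labelled WT. Rsph1 and Rsph9, which encode radial spoke proteins of cilia, gave 4.13 and 3.83 labelled Irf4-/-, and 5.53 and 4.19 labelled WT. Ramp1, a receptor chaperone, gave 3.71 and 5.88, and Car2, a carbonic anhydrase, gave 3.45 and 3.59.

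Known genes of the stage were higher too. Il7r had 435.5 CPM in SLC+ B cells and 62.7 CPM in other B cells labelled Irf4-/- (log2 ratio 2.80), and 354.5 against 59.7 CPM labelled WT (2.57). Myl4 had 769.6 against 121.1 CPM labelled Irf4-/- (2.67), and 862.7 against 125.5 CPM labelled WT (2.78). Lef1, a transcription factor of the Wnt pathway found in early B cells, gave 2.58 labelled Irf4-/- and 3.45 labelled WT, and Myb, a factor of progenitors, gave 2.33 and 1.89. Ccnd3, the D cyclin needed for pre-B cell division, gave 1.22 and 2.41. Socs2, which damps cytokine signals, gave 1.62 and 3.62.

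Maturation genes were lower throughout. Of 22 such genes all 22 were below other B cells in both libraries, with a median log2 ratio of -3.04 labelled Irf4-/- and -3.61 labelled WT, against medians of 0.01 and -0.13 over all genes with at least 20 UMIs. Ms4a1 had 248.8 CPM in SLC+ B cells against 2363 CPM in other B cells labelled Irf4-/-, and 17.1 against 2093 CPM labelled WT. Cd74, the invariant chain of MHC class II, had 834.3 against 7904 CPM labelled Irf4-/-, and 38.4 against 7086 CPM labelled WT. Bcl2, a survival gene of resting B cells, was lower by log2 ratios of -3.14 and -4.41. Labelled Irf4-/- it had 7 UMIs in dividing SLC+ B cells and 0 in non-dividing ones, so that ratio rests on few counts. The 4 light chain genes were all lower, with medians of -3.57 and -8.19.

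DNA replication genes were higher in SLC+ B cells for 28 of 28 genes in both libraries, with medians of 1.34 labelled Irf4-/- and 2.03 labelled WT. The 32 G2 and mitosis genes were likewise all higher, with medians of 1.95 and 2.43. Recombination genes were higher for 10 of 12 labelled Irf4-/- and for 5 of 11 labelled WT, with medians of 1.75 and -0.35. Over all genes with at least 20 UMIs, 50.4% and 44.7% were higher, so the count labelled WT is near that share. Rag1 had 143.3 CPM in SLC+ B cells against 44.4 CPM in other B cells labelled Irf4-/- (log2 ratio 1.69), but 34.2 against 49.5 CPM labelled WT (-0.53, from 8 UMIs in SLC+ B cells). Those 8 UMIs all lay in the 3 cells labelled WT that had Dntt. Rag2 was higher in both libraries, at 2.89 and 1.59.

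**Figure D3:**
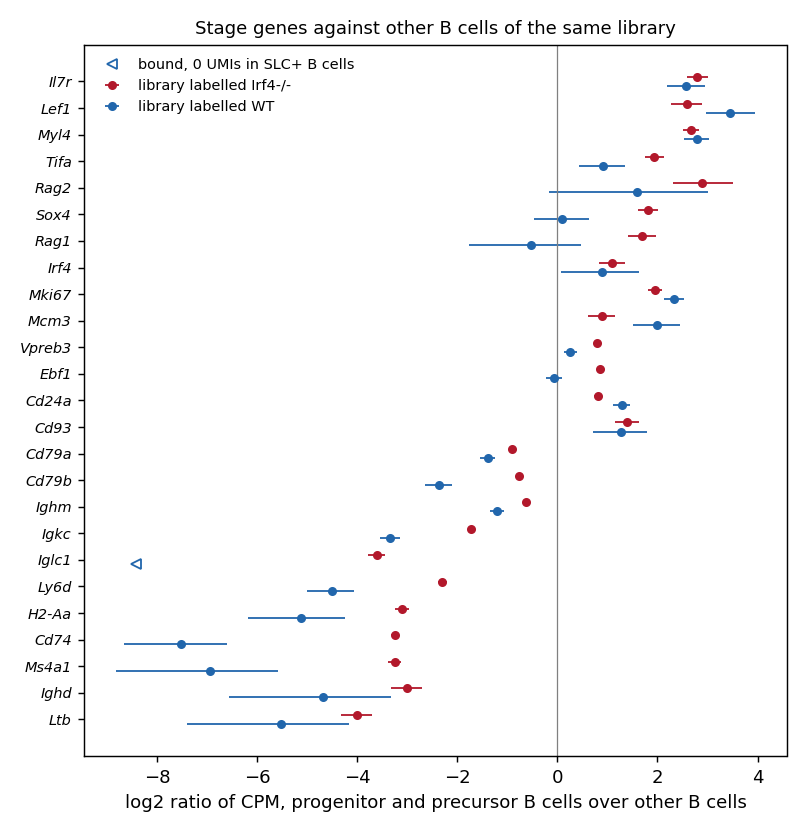
Log2 ratio of SLC+ B cells over other B cells for named genes, library labelled Irf4-/- above library labelled WT, with 95% counting intervals; 0 means equal CPM, and an open triangle is a bound from 0 UMIs. Il7r, Lef1 and Myl4 lie to the right of 0 in both libraries, and Ms4a1, Cd74 and Igkc to the left.

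The SLC+ B cells were of several kinds, and without thinning the libraries held them in different proportions. Labelled Irf4-/-, 60 of 261 cells (23.0%, 18.03 to 28.6%) were dividing, 3 (1.15%) were non-dividing with Dntt, and 198 (75.9%, 70.2 to 80.9%) were neither. Labelled WT, 8 of 13 cells (61.5%, 31.6 to 86.1%) were dividing, 2 (15.4%) were non-dividing with Dntt, and 3 (23.1%, 5.04 to 53.8%) were neither. Few cells lay near the threshold of 2 cell cycle UMIs: 4 cells labelled Irf4-/- and 1 labelled WT had 1 UMI, and none had exactly 2.

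Dividing cells were deeper, with medians of 14271 UMIs labelled Irf4-/- and 26768.5 UMIs labelled WT, and they held 56.4% and 92.3% of all UMIs of the SLC+ B cells. With cells thinned to 2000 UMIs, 52 of 258 (20.2%, 15.4 to 25.6%) and 5 of 13 (38.5%, 13.9 to 68.4%) were dividing. There the interval labelled WT spanned the whole interval labelled Irf4-/-. Dntt encodes the terminal transferase that adds bases at heavy chain joins in pro-B cells. It was detected in 4 of 261 cells labelled Irf4-/- and in 3 of 13 labelled WT.

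The Dntt+ cells had high Vpreb1 in both libraries. Labelled Irf4-/-, the 3 non-dividing ones had 23, 30 and 49 UMIs of Vpreb1 and 6, 14 and 20 of Igll1, in cells of 4195 to 6212 UMIs. Labelled WT, the 2 non-dividing ones had 25 and 23 UMIs of Vpreb1 and 9 and 6 of Igll1, in cells of 2828 and 3329 UMIs. These are the highest surrogate light chain levels of the non-dividing WT cells, whose other 3 had 1 to 2 Vpreb1 UMIs each. Myl4 was at 0 UMIs in the non-dividing Dntt+ cells of both libraries. Igkc, the kappa constant region, had 0 UMIs in the 3 Dntt+ cells labelled WT.

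Within the library labelled Irf4-/-, 60 dividing cells were compared with 201 non-dividing ones. Of 2897 genes 15.3% were called higher and 14.3% lower in dividing cells, and the median log2 ratio over all genes was -0.13. All 28 DNA replication genes were higher, with a median of 3.56, a list that overlaps in meaning with the rule of the class. Ccnd2, a D cyclin induced by the pre-B receptor and interleukin 7, gave 3.63, but 47 of its 68 UMIs came from 1 cell. Of 12 glycolysis genes 10 were higher, with a median of 1.31, among them Ldha at 2.30 and Gapdh at 1.51.

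Many genes of receptor signalling and of light chain rearrangement were lower in dividing cells. Rag1 had 19 UMIs in dividing cells against 258 UMIs in non-dividing cells, a log2 ratio of -4.13. Igkc had 507 against 5097 UMIs, which is 465 against 6047 CPM and a log2 ratio of -3.70. Ms4a1 had 0 against 481 UMIs, at least 207-fold lower when the dividing cells were set to 3 counts. All 19 genes of pre-B receptor signalling with at least 20 UMIs were lower, with a median of -1.39, among them Lyn at -2.03, Syk at -1.69 and Blnk at -1.39, a pair of kinases and the adaptor that carry the signal.

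The surrogate light chain genes did not all go one way. Vpreb1 had 702.5 CPM in dividing cells against 1326 CPM in non-dividing cells (log2 ratio -0.92), and Igll1 had 398.9 against 659.6 CPM (-0.73). Vpreb2 was higher in dividing cells, with 93 against 34 UMIs (1.08, 0.50 to 1.69). Ebf1 had 1563 against 4130 CPM (-1.40), and 21 of 22 B lineage transcription factors were lower, the exception being Lef1 at 0.89. All 8 interferon regulatory factors were lower, with Irf4 at -0.95 and Irf8 at -1.79. Of 11 genes of cell cycle inhibition and quiescence 8 were lower and 3 higher, with a median of -0.88. Btg1 gave -2.68 and Btg2 -2.58, and Klf2, counted above among the B lineage factors, gave -2.59. Il7r, at -0.31, and Ccnd3, at 0.16, differed little between these cells.

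The 198 non-dividing cells without Dntt labelled Irf4-/- were split by Rag1 or Rag2 and by Ms4a1. Rag without Ms4a1 was detected in 93 cells (47.0%), Ms4a1 without Rag in 56 (28.3%), both in 9 and neither in 40 (20.2%). Medians of 4095 UMIs in Rag cells, 3790 in Ms4a1 cells and 4450 in cells with neither were close to each other, and these classes are ranges of a gradient, not types.

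Light chain transcripts were higher in Ms4a1 cells. Igkc had 3630 CPM in Rag cells, 4987 CPM in cells with neither and 11759 CPM in Ms4a1 cells. Iglc1, a lambda constant gene whose close copies make its counts uncertain, had 69.4, 0 and 1136 CPM, with any lambda transcript in 26 of 93, 13 of 40 and 40 of 56 cells. Cd74 had 933, 1050 and 3793 CPM. Ly6d, which encodes a surface protein of B lineage cells, had 635, 822 and 3111 CPM.

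Early genes ran the other way. Tifa had 778 CPM in Rag cells, 411 CPM in cells with neither and 190 CPM in Ms4a1 cells. Ebf1 had 5020, 3877 and 2773 CPM, Il7r 637, 578 and 162 CPM, and Sox4, a factor of progenitor B cells, 529, 328 and 218 CPM. Vpreb1 had 1264, 1555 and 923 CPM, and Igll1 624, 744 and 561 CPM. The rule required at least 2 UMIs of Vpreb1 and Igll1 in each of these cells.

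Cell by cell, the same order appeared as correlations, given here as descriptions over 195 of these cells thinned to 2000 UMIs, which share a library and a sparse depth. Spearman's rho was 0.50 for Ms4a1 and Igkc, -0.36 for Rag1 and Igkc, -0.45 for Tifa and Igkc, and -0.42 for Ebf1 and Ms4a1. For Vpreb1 and Igkc it was -0.06.

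**Figure D4:**
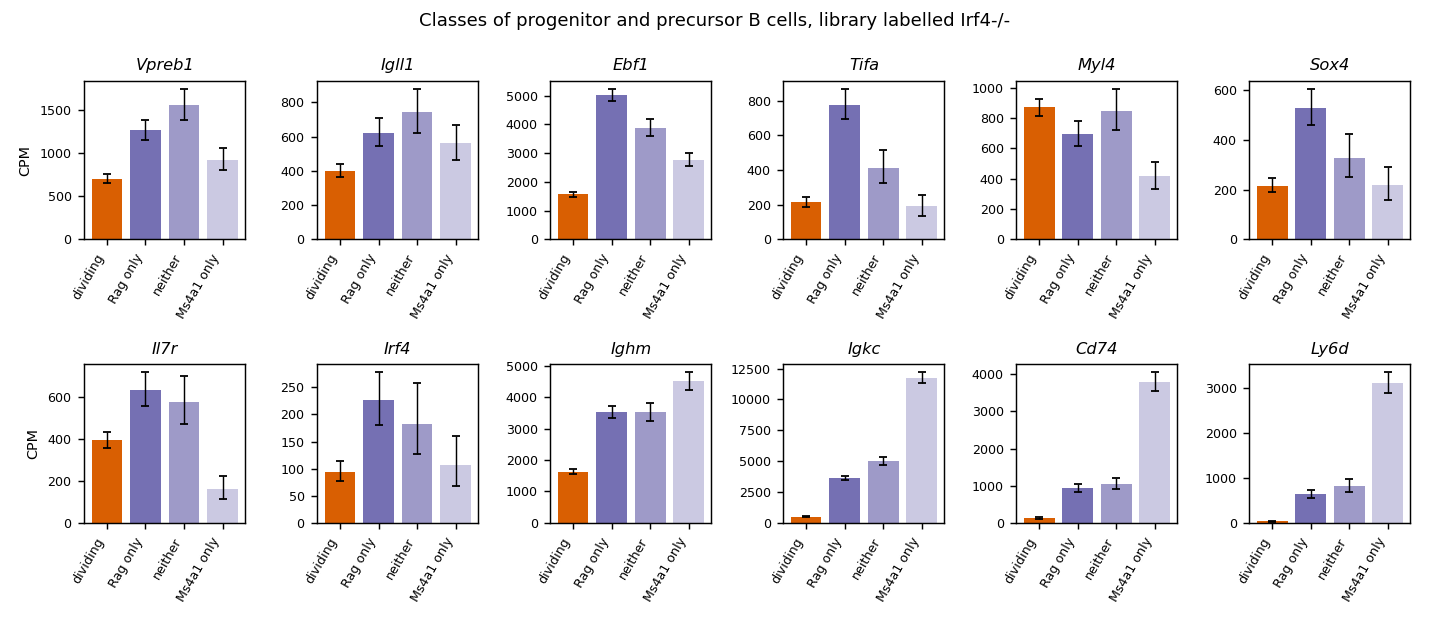
CPM of 12 genes, 1 panel each, in dividing cells and in 3 classes of non-dividing SLC+ B cells (Rag only, neither, Ms4a1 only) of the library labelled Irf4-/-; bars start at 0 and error bars are 95% Poisson intervals for counting error. Igkc stands at 465 CPM in dividing, 3630 CPM in Rag only, 4987 CPM in neither and 11759 CPM in Ms4a1 only cells, while Tifa has 778 CPM in Rag only and 190 CPM in Ms4a1 only cells.

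SLC+ B cells labelled Irf4-/- were then set against those labelled WT. Of 2759 genes 6.23% were called higher and 3.26% lower labelled Irf4-/-, and the median over 7468 genes was 0.12. Of those 7468 genes 57.4% were above 0, and in dividing cells 56.2% of 5863, the shares to set beside the list tallies below. Since 92.3% of the UMIs labelled WT came from 8 dividing cells, the ratio in dividing cells alone, 60 against 8, is given beside most ratios, and there 3.33% of 2673 genes were called higher and 1.68% lower. In other B cells, which held 3922641 and 3235691 UMIs, 0.214% were called higher and 0.643% lower. A fixed 2-fold rule calls more genes through counting error at lower totals, so these shares cannot be compared directly. The part of the different mix of stages in the ratios over all cells was not tested beyond these values. The population labelled Irf4-/- held 1933366 UMIs and that labelled WT 234152 UMIs, so a gene passed the minimum of 20 UMIs mostly through its Irf4-/- counts. Counts and medians over the genes that passed therefore favour genes higher labelled Irf4-/-, and they are given as descriptions.

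The levels of Vpreb1 and Igll1, which the rule used, are given as a description. Vpreb1 had 974.5 CPM labelled Irf4-/- and 909.7 CPM labelled WT, a log2 ratio of 0.10 (-0.11 to 0.31), and -0.08 in dividing cells. Igll1 had 512.6 and 619.3 CPM, a ratio of -0.27 (-0.53 to -0.01), and -0.56 in dividing cells. Vpreb2 had 65.7 and 149.5 CPM, a ratio of -1.19 and at least 2-fold lower, but 0.03 in dividing cells. Cd24a gave -0.02 and Myl4 -0.16, and both gave -0.01 in dividing cells.

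Light chain genes were higher labelled Irf4-/-, 4 of 4 called, with a median of 3.52. Igkc had 2899 CPM labelled Irf4-/- and 871 CPM labelled WT, a log2 ratio of 1.73 (1.53 to 1.94), and 0.77 (0.38 to 1.18) in dividing cells. With the 3 stages reweighted to the mean mix of both libraries the ratio of Igkc was -0.92, the 3 WT cells that were neither dividing nor Dntt+ having 7, 86 and 52 Igkc UMIs. Iglc1 had 296 UMIs labelled Irf4-/- and 0 UMIs labelled WT, at least 11.9-fold higher against a floor of 3 counts. All 296 came from non-dividing cells, of which the library labelled WT had 5 with 18006 UMIs in all. In dividing cells only 1 of the 4 genes, Igkc, reached 20 UMIs, and 0 were called. In other B cells the list had a median of -0.55. With at least 5 UMIs of Vpreb1 and Igll1 per cell, the median of the list was 1.38.

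The 22 maturation genes summed to 2670 CPM labelled Irf4-/- and 782 CPM labelled WT, with 0 and 8 genes at 0, and in dividing cells to 859 and 486 CPM. Of the 15 that reached 20 UMIs, 13 were higher labelled Irf4-/- with a median of 1.58, a tally the minimum favours. Cd74 had 1613 UMIs labelled Irf4-/- and 9 UMIs labelled WT, a log2 ratio of 4.44 (3.51 to 5.57). In dividing cells Cd74 gave 3.69 from 130 UMIs against 2, and in other B cells it gave 0.16. Ms4a1 had 481 UMIs labelled Irf4-/- and 4 UMIs labelled WT, a ratio of 3.86 (2.50 to 5.75), but 0 and 1 UMIs in dividing cells. With stages reweighted the ratio was 1.66 for Cd74 and 1.18 for Ms4a1. H2-Eb1 and H2-Aa, chains of MHC class II, gave 2.89 and 2.29, with 2.12 and 1.35 in dividing cells. Over other B cells the median of the list, all 22 genes included, was -0.12.

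The 22 type I interferon response genes measured summed to 1376 CPM labelled Irf4-/- and 205 CPM labelled WT, with 2 and 10 genes at 0, and most of the first sum was Ifi27l2a. In dividing cells they summed to 916 and 199 CPM. The 13 that reached 20 UMIs were all higher labelled Irf4-/- with a median of 1.68, which the minimum likewise favours. Ifi27l2a had 851 and 51.2 CPM, from 1645 UMIs labelled Irf4-/- and 12 UMIs labelled WT, a log2 ratio of 4.05 (3.24 to 5.01), with 3.55 in dividing cells and 1.25 in other B cells. In other B cells the median was 0.59.

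Recombination genes did not go one way as a list, with 6 of 11 higher, against 57.4% of all genes, and a median of 0.46. Rag1 had 277 UMIs labelled Irf4-/- and 8 UMIs labelled WT, a log2 ratio of 2.07 (1.07 to 3.29). In dividing cells Rag1 gave 1.91 from 19 UMIs against 1, with an interval of -0.74 to 7.29 that includes 0, and as a mean over cells the ratio was 0.46. Dntt had 24 UMIs labelled Irf4-/- and 29 UMIs labelled WT, a ratio of -3.32 (-4.16 to -2.49), and -4.92 in dividing cells. Myl10, a further myosin light chain gene, had 26 and 29 UMIs, a ratio of -3.20, and -4.41 in dividing cells. The 29 Dntt UMIs labelled WT came from the 3 cells described above. Only 1 of these was dividing, a cell of 9248 UMIs with 12 Dntt UMIs. It also held 16 of the 21 Myl10 UMIs of dividing cells labelled WT, so both ratios in dividing cells rest mostly on it.

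B lineage transcription factors were higher labelled Irf4-/- for 18 of 22 genes, with a median of 0.58, and 4 of 21 tested at 50 CPM were called. With stages reweighted the median was -0.15. Ebf1 had 2682 CPM labelled Irf4-/- and 1397 CPM labelled WT, a log2 ratio of 0.94 (0.78 to 1.11), and 0.39 (0.20 to 0.59) in dividing cells, with 0.25 after reweighting. Klf2, a factor of quiescent lymphocytes, gave 2.65 (1.92 to 3.50) and 1.97 in dividing cells. Spib, an ETS factor that partners with IRF4, gave 1.81, and 0.75 (-0.20 to 1.86) in dividing cells. Sox4 gave 1.13 and 0.85.

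Pre-B receptor signalling genes were higher for 16 of 19, with a median of 0.76, against 0.13 in dividing cells. Blnk had 545 UMIs labelled Irf4-/- and 22 UMIs labelled WT, a log2 ratio of 1.59 (0.97 to 2.27), with 0.99 (0.29 to 1.77) in dividing cells. Lyn gave 1.43, but 0.35 (-0.33 to 1.11) in dividing cells. Pim1, a kinase gene induced by interleukin 7, gave 2.51 from 235 UMIs against 5, and 3.77 from 69 against 1 in dividing cells. Btg2 gave 2.06, with 2.48 (1.23 to 4.13) in dividing cells and -0.53 after reweighting. Il7r itself had 435.5 CPM labelled Irf4-/- and 354.5 CPM labelled WT, a ratio of 0.30 (-0.03 to 0.64). The interleukin 7 signalling list was higher for 8 of 13 genes, with a median of 0.39, near the 57.4% above 0 over all genes.

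Growth and division genes were lower labelled Irf4-/- over all SLC+ B cells. DNA replication genes were lower for 26 of 28, with a median of -0.70, and G2 and mitosis genes for 30 of 32, with a median of -0.59. Over dividing cells alone these medians were -0.10 and 0.07. Glycolysis genes were lower for 10 of 12, with a median of -0.64, and for 10 of 11 in dividing cells, with a median of -0.31. Ldha had 213 CPM labelled Irf4-/- and 577 CPM labelled WT, a log2 ratio of -1.44, and -0.90 (-1.20 to -0.60) in dividing cells.

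Ccnd3 differed alike in both sets. It had 364 CPM labelled Irf4-/- and 743 CPM labelled WT, a log2 ratio of -1.03 (-1.27 to -0.78), and -1.03 (-1.29 to -0.76) in dividing cells, against 0.17 in other B cells. Myc, the growth regulator, gave -1.46 from 54 UMIs against 18, and -0.86 (-1.66 to 0.00) in dividing cells. Ccnd2 gave -1.87, and -1.19 in dividing cells, with most of its UMIs labelled Irf4-/- in the 1 cell named above.

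**Figure D5:**
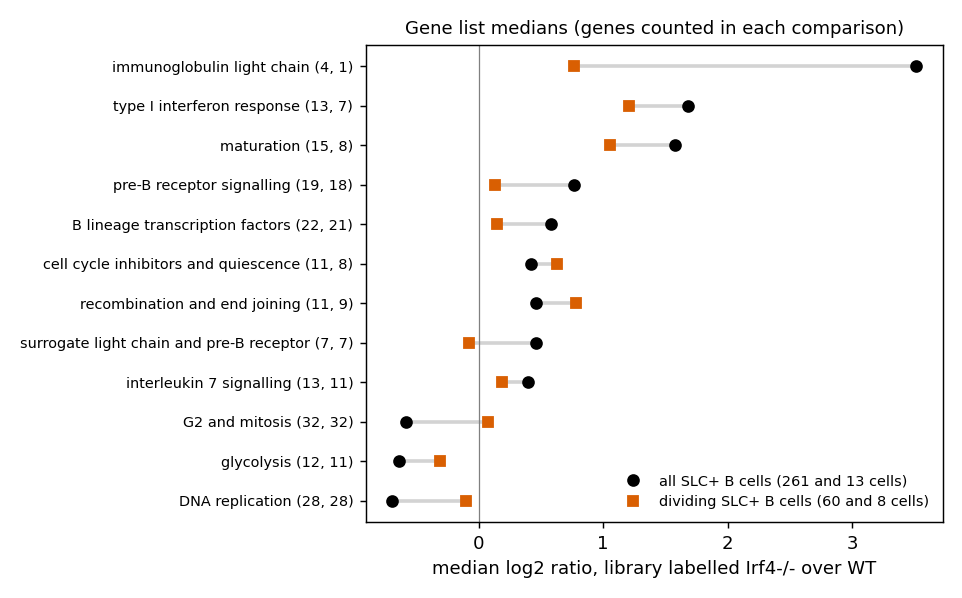
Median log2 ratio, library labelled Irf4-/- over library labelled WT, for each gene list over all SLC+ B cells (circles) and over dividing ones (squares), with the number of genes behind each in brackets; 0 means equal CPM. DNA replication has -0.70 over all SLC+ B cells and -0.10 over dividing ones, while the type I interferon response has 1.68 and 1.21.

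Irf4 transcripts (ENSMUSG00000021356, chromosome 13, mm10 positions 30749226 to 30766976) were counted in both libraries. SLC+ B cells labelled Irf4-/- had 257 UMIs in 146 of 261 cells, 133 CPM (117 to 150.2), and those labelled WT had 17 UMIs in 6 of 13 cells, 72.6 CPM (42.3 to 116). The log2 ratio was 0.87 (0.17 to 1.67), with 0.44 (-0.34 to 1.33) in dividing cells and 0.67 in other B cells. T cells had an Irf4 UMI in 2.65% of cells labelled Irf4-/- and in 0.737% labelled WT. A 3' library counts transcript ends, so these counts cannot check the genotype, and they do not show a protein. Of all Irf4 UMIs in kept cells, SLC+ B cells held 32.0% labelled Irf4-/- and 5.92% labelled WT. Irf8 had 529 UMIs labelled Irf4-/- and 31 UMIs labelled WT, a log2 ratio of 1.05 (0.52 to 1.62), and 0.08 (-0.52 to 0.73) in dividing cells. Of the 8 interferon regulatory factors 7 were higher labelled Irf4-/-, with a median of 0.87, against 0.40 in dividing cells.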

How the data were processed

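Single-cell 3' libraries of sorted bone marrow cells were analysed, 1 labelled Irf4-/- and 1 labelled WT. The authors deposited raw UMI counts, a whole number for each gene in each barcode. Per the file headers these counts came from Cell Ranger 6.1.1, and per the submitters' processing notes the build was mm10. For the annotation release and any doublet removal, the sources used here give nothing. The labels' kit text speaks of nuclei, although cells were sorted. Barcodes with at least 500 genes, at least 1000 UMIs and under 10% mitochondrial UMIs were kept. Counts were summed per population and library and divided by the population's total to give CPM. Ratios carry exact conditional binomial 95% intervals, shares Clopper-Pearson ones and CPM exact Poisson ones, and a count of 0 was bounded at 3 counts per population. Cells were not treated as replicates. List medians used genes with at least 20 UMIs over both populations. Python 3.11.15, numpy 2.4.6, scipy 1.17.1 and pandas 2.3.3 were used, with edgeR 4.0.16 in R 4.3.3 for the TMM factors of 1 alternative. Code was tested on simulated data. Gene positions are from the GENCODE annotation of mm10 given as reference.

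The cells, the 22 gene lists and the comparisons were chosen with earlier results of these data known. Named genes were the markers, rule, gate and list genes, the 12 highest and 12 lowest ratios between libraries, up to 4 genes of each further list and the 15 genes highest over other B cells at a mean of at least 50 CPM. The Ighv segments printed were chosen after their values were seen. Alternatives were the marker threshold, CD3 limit, cell filter, very deep cells, thinning, totals, TMM, cell weights, stage mix and count minimum. Dividing cells alone, and cells without the neutrophil-granule cell, were alternatives chosen after seeing the data.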

Additional observations from a re-analysis of the deposited data

Results flagged for a closer look

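For 6 genes the log2 ratio of SLC+ B cells over other B cells had opposite signs in the libraries, with counting intervals on either side of 0. Only named and list genes with a mean of at least 50 CPM in each library were searched, so no share over all genes is given. Dividing cells held 92.3% of the SLC+ UMIs labelled WT and 56.4% of those labelled Irf4-/-. Neither the part of this mix nor the difference between libraries was tested. Btg2, an antiproliferative gene, gave 0.17 labelled Irf4-/- and -1.97 labelled WT. Pim1 gave 0.53 and -2.26, and Blnk gave 0.30 and -1.14. Ifi27, an interferon-induced gene, gave 1.20 and -0.95. Tcf4, the E protein E2-2, gave 0.30 and -0.73, and Cst3, a protease inhibitor, gave 0.55 and -0.62.

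Outside the rule, 46 cells labelled Irf4-/- had Cd79a and at least 2 UMIs of Vpreb1 and Igll1 together with 2 or more CD3 UMIs, against 1 cell labelled WT. They were left out of every comparison, and whether they are droplets with a B cell and a T cell was not tested.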

How the results depend on the processing

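No paired analysis was possible because each genotype had 1 library. Of 615 values recomputed for 56 results whose interval excluded 0, all but 16 kept their direction. The changes were 9 of 52 values with stages reweighted, 6 of 50 in dividing cells alone and 1 of 52 as a mean over cells. The log2 ratio of shares of kept cells (4.96) lay between 4.55 and 5.12, and that among B cells (4.13) between 3.74 and 4.29, apart from 1.95 in dividing cells alone. The share of dividing cells was lower labelled Irf4-/- (-1.42) in every alternative run, between -2.35 and -0.89. With cells thinned, the interval of the share labelled WT spanned that labelled Irf4-/-.

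List medians below are of SLC+ B cells, Irf4-/- over WT. DNA replication (-0.70) was -0.57 at 5 or more UMIs of Vpreb1 and Igll1, -0.49 with at least 1000 genes and under 5% mitochondrial UMIs, -1.93 without very deep cells, -1.42 as a mean over cells, -0.39 with stages reweighted and -0.10 in dividing cells. G2 and mitosis (-0.59) was -0.34 with the stricter filter, -1.28 without very deep cells, -0.86 as a mean over cells, 0.10 reweighted and 0.072 in dividing cells. B lineage transcription factors (0.58) were -0.15 reweighted and 0.14 in dividing cells. The light chain median (3.52) was 1.38 at 5 or more UMIs and 1.70 at 1 or more. Without very deep cells, pre-B receptor signalling (0.76) was 1.12 and glycolysis (-0.64) was -1.59. Recombination (0.46) was -0.74 as a mean over cells. Reweighting reversed Igkc to -0.92 and Btg2 to -0.53, and in dividing cells alone Vpreb2 reversed to 0.034. The cause was not tested.

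Genes called higher (172) numbered 359 without very deep cells, 263 with totals that leave out immunoglobulin, ribosomal and mitochondrial genes, 1315 with no count minimum and 89 in dividing cells. Genes called lower (90) numbered 53 with the stricter filter, 359 without very deep cells, 156 with those totals, 326 as a mean over cells, 443 reweighted, 58 at a minimum of 100 UMIs, 705 with no minimum and 45 in dividing cells. Over other B cells, 111 genes were called higher and 92 lower in both libraries without very deep cells, against 190 and 140.

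The 13 SLC+ B cells labelled WT, with 5 non-dividing ones, limit every ratio between libraries. At this depth a count of 0 for Dntt, Rag1 or Ms4a1 in a cell does not show absence, and free RNA and doublets were not removed.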

Other observations

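Heavy chain variable segments were seen in few cells, as a 3' library reads mostly the constant end. Any Ighv UMI was found in 80 of 261 SLC+ B cells (30.7%) labelled Irf4-/- and in 7 of 13 (53.8%) labelled WT, with 105 and 13 UMIs. These shares are not at equal depth, with medians of 4453 and 14657 UMIs per cell and totals of 1933366 and 234152 UMIs. Labelled Irf4-/-, Ighv1-81 gave 25 UMIs in 21 cells, 23.8% of the V segment UMIs, and the next segment, Ighv4-1, gave 8 UMIs in 4 cells. Near-identical V segments make these counts uncertain.

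Cd55, a complement regulator, had 148 UMIs labelled Irf4-/- and 0 UMIs labelled WT, at least 5.97-fold higher against the floor of 3 counts, and 22 and 0 UMIs in dividing cells, at least 1.45-fold. The other 126 UMIs labelled Irf4-/- came from non-dividing cells, of which the library labelled WT had 5 with 18006 UMIs in all. Adam10, a membrane protease, had 237 UMIs labelled Irf4-/- and 4 UMIs labelled WT, a log2 ratio of 2.84 (1.47 to 4.73), and 3.31 (1.42 to 6.37) in dividing cells, against -0.13 in other B cells. Il12a, which encodes a subunit of interleukins 12 and 35, had 184 and 2 UMIs, a ratio of 3.48 (1.60 to 6.53), with 2.06 (0.11 to 5.15) in dividing cells and 0.74 in other B cells.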
